A study of Homo sapiens with 4 samples.

Results

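The MRPL genes encode proteins of the large subunit of the mitochondrial ribosome, and ERRα peaks at and around these genes were examined in MDA-MB-231 cells, an established line of triple-negative human breast cancer. All protein-coding genes whose RefSeq symbol is MRPL followed by a number were taken, which gave 49 of 20037 protein-coding genes on chromosomes 1 to 22, X and Y (GRCh38). The series holds 2 chromatin immunoprecipitation and sequencing (ChIP-seq) libraries made with an antibody to ERRα and 2 input libraries of chromatin that was not precipitated. All 4 came from MDA-MB-231 cells in ordinary culture, and the labels name no treatment, time point or change of genotype that would set groups apart. The design text gives 2 samples of cultured cells for the replicates, and how far apart these were grown is not stated, so an SD over them may be mostly technical. The authors used the same pair of inputs as background for both replicates, and what this common background adds to their likeness was not tested. The gene of ERRα itself, ESRRA, carried the highest peak of the matched list, with fold enrichments of 544 in replicate 1 and 547 in replicate 2, where the matched list adds up 2 adjoining peaks. Each MRPL fold given here is that of a single peak per replicate.

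Mitochondria have their own ribosomes, which translate the few messages of the mitochondrial genome, all of them for subunits of the oxidative phosphorylation complexes. The proteins of these ribosomes are encoded in the nucleus, made in the cytosol and imported. Some descend from bacterial ribosomal proteins and lie at the stalk, around the catalytic core and along the exit tunnel. Others were added to the particle in the mitochondrial lineage. ERRα is an orphan nuclear receptor known for regulating genes of mitochondrial energy metabolism, and it binds a short extended half-site whose core reads AAGGTCA.

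Of the 49 MRPL genes, 12 (24.5%) had a reproducible ERRα summit within 1 kb of the lower or upper coordinate of the gene, against 4.49% of all protein-coding genes. A summit is the position of highest enrichment in a peak, and a peak is called reproducible if it was matched between the replicates and passed an irreproducible discovery rate (IDR) of 0.05, as 5070 peaks did. The 12 genes were MRPL2, MRPL4, MRPL10, MRPL12, MRPL15, MRPL21, MRPL34, MRPL35, MRPL36, MRPL41, MRPL47 and MRPL48. With summits inside the gene or up to 10 kb away, MRPL22, MRPL54 and MRPL58 joined them, which made 15 of 49 (30.6%) beside 18.3% of all genes. The mean fold of the 12 peaks at gene ends ran from 8.43 to 34 with a median of 15.5, and 9 of the 12 lay above 13.5, the median of the 768 reproducible peaks at ends of protein-coding genes. No test was made of the list, since its members were chosen with earlier results of these data known.

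**Figure D1:**
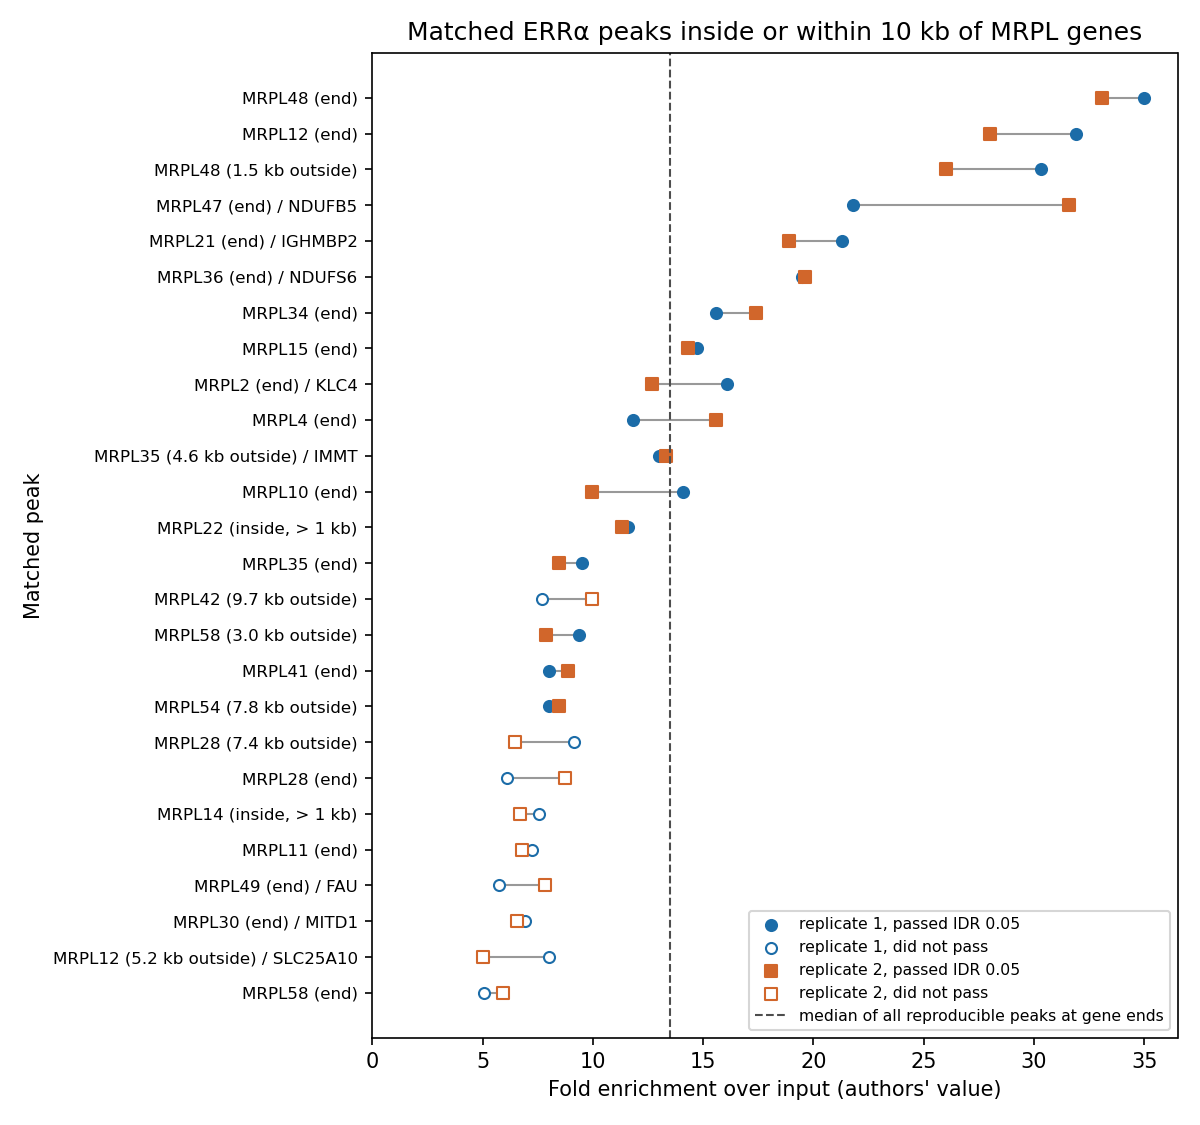
Fold enrichment over input in replicate 1 (circles) and replicate 2 (squares) for each of the 26 matched peaks inside or within 10 kb of an MRPL gene, with filled marks for peaks that passed IDR 0.05, grey lines joining the replicates, and gene names after a slash where the summit is also within 1 kb of another protein-coding gene. The dashed line is the median of 13.5 at gene ends, and the gene-end peaks of MRPL48, MRPL12 and MRPL47 lie to its right in both replicates, while a second MRPL12 peak beside SLC25A10 lies to its left.

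The protein of the ribosomal stalk, MRPL12, had one of the highest peaks of the group. MRPL12 is the homologue of bacterial L12 and contacts translation factors. Its peak lay on chromosome 17 from 81703100 to 81704114, with fold enrichments of 31.9 in replicate 1 and 28 in replicate 2 (mean 30 ± 2.82, SD, n = 2). The summit was inside the gene, 337 bp downstream of its one listed start, and no other protein-coding gene ended within 1 kb of it. MRPL10, which anchors MRPL12 to the stalk base, had 14.1 and 9.96 (12 ± 2.89, SD, n = 2) in a peak on chromosome 17 from 47823297 to 47823986, with its summit 410 bp inside the lower coordinate of the gene. No start of MRPL10 was listed, so whether this coordinate is its start or its far end was not examined. The nearest other protein-coding gene to the summit was OSBPL7, at 1.89 kb. MRPL11, which also belongs to the stalk base, had a weaker peak, with 7.22 and 6.79 (7.0 ± 0.306, SD, n = 2), that did not pass IDR 0.05, although its summit was 40 bp from the listed start. The values of MRPL12 were above those of MRPL10 and MRPL11 in both replicates. A second matched MRPL12 peak, 5.21 kb beyond the gene and 440 bp from SLC25A10, a mitochondrial carrier gene, had 7.99 and 5.01 (6.50 ± 2.11, SD, n = 2) and did not pass IDR 0.05.

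MRPL2, MRPL4 and MRPL47 also had a reproducible summit at an end. MRPL4, whose bacterial homologue lines the tunnel, had 11.8 and 15.6 (13.7 ± 2.71, SD, n = 2) on chromosome 19 from 10251922 to 10252731, and the summit coincided within 1 bp with the second of its 2 listed starts. MRPL2, a protein of the core, had 16.1 and 12.7 (14.4 ± 2.39, SD, n = 2) on chromosome 6 from 43058628 to 43059653. That summit was 614 bp inside the upper coordinate of MRPL2 and 382 bp from an end of KLC4, a kinesin light chain gene, so it cannot be given to either gene alone. MRPL47, the homologue of bacterial L29 at the tunnel exit, had 21.8 and 31.6 (26.7 ± 6.94, SD, n = 2) on chromosome 3 from 179604074 to 179605591. This was the widest spread of the 12, with a ratio of 1.45 between replicates. Its summit lay 313 bp outside MRPL47 and 165 bp inside NDUFB5, the gene of a complex I subunit.

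Other homologues of bacterial proteins with a summit at an end were MRPL15, MRPL21, MRPL34, MRPL35 and MRPL36. MRPL21 had 21.3 and 18.9 (20.1 ± 1.70, SD, n = 2) in a peak on chromosome 11 from 68903349 to 68904156, whose summit was 23 bp inside MRPL21 and 82 bp from IGHMBP2, a helicase gene. MRPL36, one of the smallest ribosomal proteins, had 19.5 and 19.6 (19.5 ± 0.114, SD, n = 2) on chromosome 5 from 1801154 to 1801885. Its summit was 52 bp outside the upper coordinate of MRPL36 and 79 bp from the start of NDUFS6, a complex I subunit. The listed start of MRPL36 is farther inside the gene, 1649 bp from the summit, so with starts in place of gene ends MRPL36 is not counted. MRPL34 had 15.6 and 17.4 (16.5 ± 1.28, SD, n = 2) on chromosome 19 from 17305763 to 17306728. The gene has 4 listed starts, and the summit was 242 bp downstream of the nearest of them and 729 bp from the upper coordinate of the gene.

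MRPL15 had nearly equal folds of 14.7 and 14.3 (14.5 ± 0.278, SD, n = 2), with the summit 24 bp inside its lower coordinate (chromosome 8, 54134831 to 54135706). MRPL35 had 9.51 and 8.46 (8.99 ± 0.745, SD, n = 2) on chromosome 2 from 86199162 to 86200069, which made it the second weakest of the 12. A stronger reproducible peak, with 13 and 13.3 (13.2 ± 0.180, SD, n = 2), lay 4.58 kb outside MRPL35 within its neighbour IMMT, which encodes a core protein of the cristae-forming MICOS complex. Each replicate's fold was higher at the IMMT peak than at the MRPL35 peak.

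MRPL48 and MRPL41 were the members with a reproducible summit at an end among the proteins added in mitochondria. The MRPL48 peak, on chromosome 11 from 73787379 to 73789776, was the strongest of the 12 with 35 and 33.1 (34 ± 1.30, SD, n = 2). At 2398 bp it was also the widest, against a median of 774 bp for all reproducible peaks. A further peak 1.48 kb beyond the upper coordinate of MRPL48 had 30.3 and 26 (28.1 ± 2.99, SD, n = 2), and the nearest other protein-coding gene was COA4, a cytochrome oxidase assembly gene, at 6.05 kb. MRPL48 thus had a strong peak near each of its coordinates, and the mean of the farther one was below that of MRPL12 by less than either SD.

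MRPL41 was the weakest of the 12, with 7.99 and 8.86 (8.43 ± 0.616, SD, n = 2) on chromosome 9 from 137551818 to 137552764. The replicate summits there were 555 bp apart, against a median gap of 27 bp over reproducible peaks, 99.1% of which had a smaller gap. The gene itself is 677 bp long, so the position of the MRPL41 summit within it was not fixed by the 2 replicates.

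By origin of the protein, 10 of 30 homologues of bacterial proteins and 2 of 19 proteins added in mitochondria had a reproducible summit at an end (33.3% and 10.5%), against 4.49% of all protein-coding genes. With matched peaks of any IDR inside the gene or within 10 kb, the counts were 15 of 30 (50.0%) and 6 of 19 (31.6%). Under this rule the share of the added proteins was near the 30.8% of all genes, whose median length was 24115 bp. Gene length was not allowed for. With matched peaks of any IDR at an end, the shares were 43.3% and 21.1%, both above the 8.85% of all genes. By listed starts, 4 of 23 homologues (17.4%) and 2 of 19 added proteins (10.5%) had a reproducible summit within 1 kb, against 4.51%. With reproducible summits inside the gene or within 10 kb, the shares were 36.7% and 21.1%, against 18.3% of all genes. The 4 summits at an end that were shared with another gene, at MRPL2, MRPL21, MRPL36 and MRPL47, all belonged to homologues. Whether the shares of homologues and added proteins differ was not tested.

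**Figure D2:**
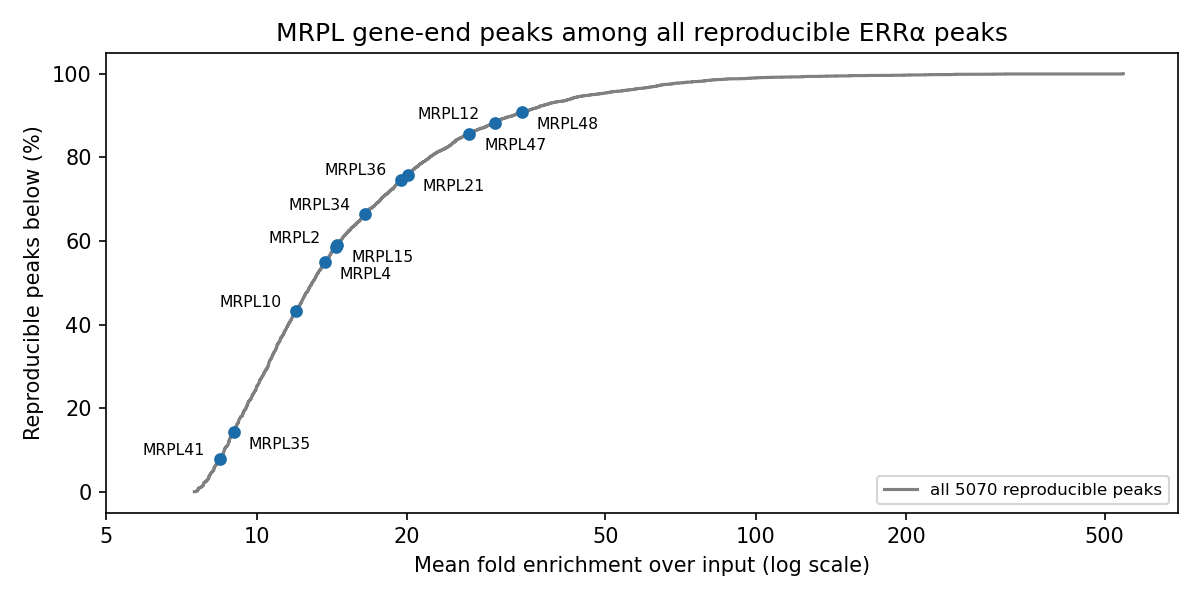
Mean fold enrichment (log scale) of the 12 MRPL peaks at gene ends (points) on the cumulative curve of all 5070 reproducible peaks (grey), whose y axis gives the percentage of reproducible peaks with a lower mean fold. MRPL48 lies above 90.8% of them and MRPL41 above 7.85%.

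The letters under these peaks were read from RefSeq promoter windows (GRCh38.p14), which span 250 bases before to 50 after each listed start. Such windows were held for 42 of the 49 MRPL genes, and windows of MRPL2, MRPL10, MRPL13, MRPL15, MRPL21, MRPL23 and MRPL35 were not used here. Across the genome, 216 windows held a reproducible summit, and 42.6% of them contained AAGGTCA on either strand, against 3.68% of the windows without a summit. The shorter AGGTCA, which every AAGGTCA also contains, was in 58.8% and 13.6%. Peaks at or near MRPL genes overlapped windows with such letters at MRPL4, MRPL11 and MRPL36, in the last case through the window of NDUFS6. Of these windows only that of MRPL4 held a reproducible summit, as the genome shares require, and it lacked AAGGTCA. The NDUFS6 window did not hold the summit, and the MRPL11 peak was not reproducible. Overlapped windows of MRPL12, MRPL30, MRPL34, MRPL41, MRPL47, MRPL48, MRPL58, MITD1 and IMMT, and of the first MRPL4 start, held neither motif. The stretches of 30 bases around the matches at MRPL4, MRPL11 and NDUFS6 are shown because no other window overlapped by a matched peak around an MRPL gene held AGGTCA. Each is written 5′ to 3′ on the strand of the gene whose window it is, and capitals mark the match, which lies on the opposite strand in all 3.
MRPL36 and NDUFS6, chr5:1801420-1801449, plus strand: ggcggcggcgaTGACCTTctgccggctgct
MRPL4, chr19:10252210-10252239, plus strand: ctccagtggcctTGACCTcccgcggcgtgg
MRPL11, chr11:66438820-66438849, minus strand: cgtgaggaccctTGACCTctggcccaagat
The NDUFS6 match is AAGGTCA and lay 49 bp from the shared summit. The matches at MRPL4 and MRPL11 are AGGTCA alone, 7 bp and 24 bp from the summits.

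Upstream of the starts of MRPL12, MRPL48 and MRPL47, the genes with the highest peaks at an end, no AGGTCA was present in the window, although the peaks covered these bases. Their summits lay 337 bp and 379 bp downstream of the start and 313 bp upstream of it, outside the windows, so the letters at the summits themselves were not examined. The bases before the start that lie outside all genes of the table and inside the peak are shown for these 3 genes and for MRPL30. At MRPL30 the summit falls within the stretch. Capitals mark matches on either strand to any of CCGGAAG (ETS factors), AAGATGGC (YY1), GCATGCGC (NRF1), GGGCGG (SP1), CCAAT (NF-Y), TGANTCA (AP-1) or AGGTCA.
MRPL12, chr17:81703117-81703366, plus strand: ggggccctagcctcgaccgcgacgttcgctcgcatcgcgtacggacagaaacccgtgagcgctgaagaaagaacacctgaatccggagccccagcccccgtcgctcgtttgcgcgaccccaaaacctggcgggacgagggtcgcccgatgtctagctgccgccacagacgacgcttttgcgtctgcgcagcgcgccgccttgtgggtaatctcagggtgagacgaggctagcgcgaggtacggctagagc
MRPL48, chr11:73787624-73787873, plus strand: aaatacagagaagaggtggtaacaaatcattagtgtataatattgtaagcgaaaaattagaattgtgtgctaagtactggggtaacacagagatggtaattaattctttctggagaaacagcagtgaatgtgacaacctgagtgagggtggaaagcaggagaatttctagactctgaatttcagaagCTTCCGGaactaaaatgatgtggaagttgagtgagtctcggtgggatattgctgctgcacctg
MRPL47, chr3:179604647-179604793, minus strand: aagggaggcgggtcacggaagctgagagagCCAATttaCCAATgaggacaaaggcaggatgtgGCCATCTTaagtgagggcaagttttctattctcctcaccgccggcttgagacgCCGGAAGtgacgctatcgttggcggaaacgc
MRPL30, chr2:99181059-99181183, plus strand: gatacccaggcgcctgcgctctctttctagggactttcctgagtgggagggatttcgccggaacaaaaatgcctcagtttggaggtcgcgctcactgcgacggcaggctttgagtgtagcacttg
The MRPL47 stretch is the whole gap between MRPL47 and NDUFB5 and holds CCAAT at 2 places, AAGATGGC and CCGGAAG. In MRPL48, CCGGAAG was the one match, and the MRPL12 and MRPL30 stretches held none.

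Over all 42 MRPL genes with a window, AAGGTCA was found at MRPL34 alone (2.38%, against 4.26% of the protein-coding genes with a window). That match is in the window of the first of the 4 MRPL34 starts, whereas the peak lies at the last. AGGTCA was found at 6 genes (14.3%, against 15.2%), namely MRPL4, MRPL11, MRPL34, MRPL43, MRPL53 and MRPL55. The 9 letters TCAAGGTCA and the AP-1 letters were found at none (0.335% and 8.04% of all genes). AAGATGGC was in 13 (31.0%, against 4.66%) and CCGGAAG in 18 (42.9%, against 16.5%). Of the 7 genes with a window among the 12 with a reproducible summit at an end, AAGATGGC was in 2 and CCGGAAG in 2. The former were MRPL36 and MRPL47, and the latter MRPL47 and MRPL48. The MRPL36 window lies outside the MRPL36 peak. GCATGCGC was in 4 (9.52%, against 4.89%), GGGCGG in 23 (54.8%, against 64.3%) and CCAAT in 12 (28.6%, against 42.1%). A gene was counted if any of its windows held the letters, and the number of windows per gene was not allowed for. A lower share among MRPL genes therefore cannot be read as a shortage. Counted per window instead, the genome-wide share of GGGCGG was below 54.8%, and that of CCAAT was still above 28.6%. A match describes the letters of the window and is not evidence of a bound factor.

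The 3 genes with a reproducible summit only farther than 1 kb from an end had mean folds of 8.23 to 11.5, within or just below the lower part of the range at gene ends. MRPL22, whose bacterial homologue lines the exit tunnel, had 11.6 and 11.3 (11.5 ± 0.190, SD, n = 2) inside the gene, 3.71 kb from its upper coordinate and 24626 bp downstream of the listed start. MRPL58, a peptidyl-tRNA hydrolase that rescues stalled ribosomes as well as a ribosomal protein, had 9.37 and 7.86 (8.62 ± 1.06, SD, n = 2) at 3.02 kb outside its lower coordinate. A second MRPL58 peak, 161 bp upstream of the start, had 5.07 and 5.94 and failed IDR 0.05. MRPL54 had 7.99 and 8.46 (8.23 ± 0.331, SD, n = 2) at 7.76 kb, and that summit was nearer to MATK, a tyrosine kinase gene, at 2.65 kb.

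Of the 7 genes with a listed start among the 12, 5 had an unshared summit within 1 kb of a start. In the matched list all 5 summits lay downstream of the nearest start, that of MRPL4 by 1 bp only. These were MRPL48 (379 bp), MRPL41 (381 bp), MRPL12 (337 bp), MRPL34 (242 bp) and MRPL4 (1 bp, or 264 bp from its first start). Among the 565 reproducible summits within 1 kb of the start of 1 protein-coding gene, 50.8% were downstream. The MRPL4 summit was 18 bp upstream of its nearest start in replicate 1 and 21 bp downstream in replicate 2, so its side was not fixed. With 5 summits, and that of MRPL41 loosely placed, no more than this description is given. Counted by listed starts alone, 6 of 42 MRPL genes (14.3%) had a reproducible summit within 1 kb, against 4.51% of all genes with a listed start. The genes lost against the count by gene ends were MRPL36 and the 5 without a listed start.

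**Figure D3:**
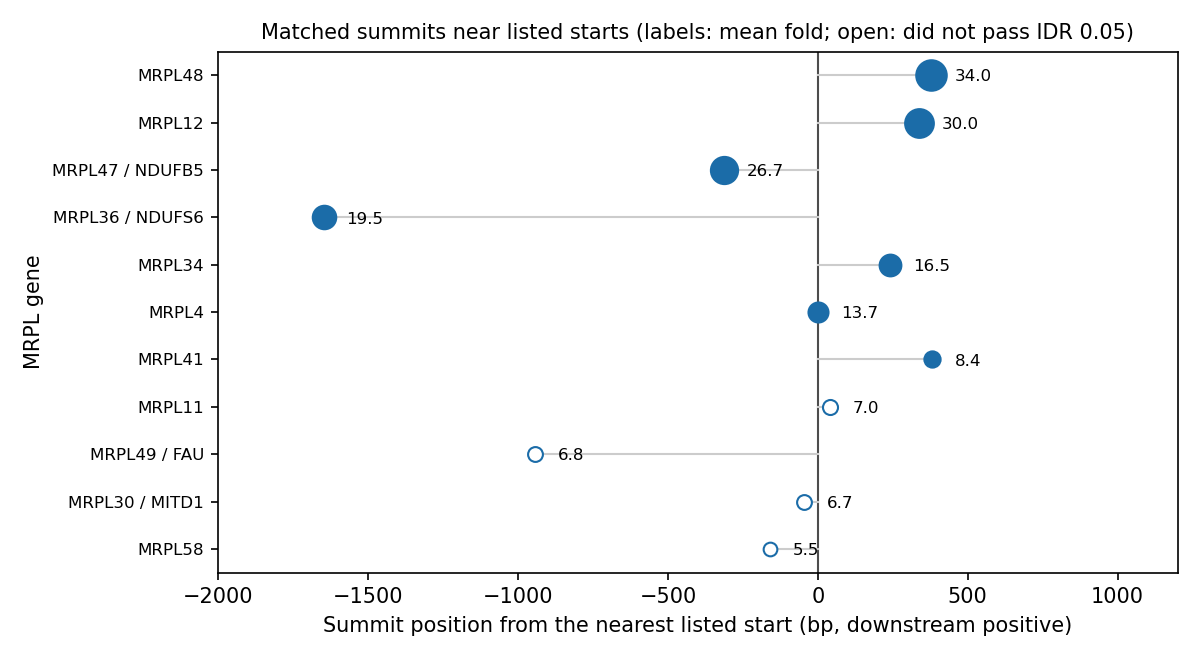
Position of each matched summit relative to the nearest listed start of its MRPL gene (x axis, bp, downstream positive), for summits within 2 kb of a start, with circle area growing with the mean fold that is printed beside it. Filled circles passed IDR 0.05, and the summits of MRPL48, MRPL12, MRPL34, MRPL4 and MRPL41 lie downstream of the line at 0 or on it, while those of MRPL47 and MRPL36, shared with complex I genes, lie upstream.

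Neighbours were common beside MRPL genes. Another protein-coding gene ended within 1 kb of 28 of the 49 (57.1%), against 28.5% of all protein-coding genes, and of the 12 genes with a reproducible summit at an end 7 had such a neighbour. Of all genes with a close neighbour 6.95% had a reproducible summit at an end, and of those without one 3.51%. Of the 12 summits, 4 were shared with another gene's end, namely those of MRPL2 (KLC4), MRPL21 (IGHMBP2), MRPL36 (NDUFS6) and MRPL47 (NDUFB5). With all shared summits left out, 8 MRPL genes had a reproducible summit at an end, against 3.12% of all protein-coding genes. A peak list does not tell which of 2 adjoining genes a summit belongs to.

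With matched peaks of any IDR, 17 MRPL genes (34.7%) had a summit within 1 kb of an end, against 8.85% of all genes, and 21 (42.9%) had one inside or within 10 kb, against 30.8%. The added genes at an end were MRPL11, MRPL28, MRPL30, MRPL49 and MRPL58, with mean folds from 5.51 to 7.41 in those peaks. MRPL30 had 6.92 and 6.57 (6.74 ± 0.251, SD, n = 2) in the gap to MITD1, and MRPL49 had 5.75 and 7.82 (6.78 ± 1.47, SD, n = 2) at a summit inside FAU, which encodes a protein of the cytosolic small subunit. The MRPL28 peak had 6.09 and 8.74 (7.41 ± 1.87, SD, n = 2), lay 626 bp beyond the end of the gene opposite its start, and had replicate summits 518 bp apart. A second MRPL28 peak, 7.42 kb outside the gene and within PGAP6, had 9.13 and 6.45 (7.79 ± 1.90, SD, n = 2) and did not pass IDR 0.05 either. Beyond 1 kb, MRPL14 had 7.56 and 6.71 (7.14 ± 0.601, SD, n = 2) inside the gene. MRPL42 had 7.70 and 9.96 (8.83 ± 1.60, SD, n = 2) at 9.68 kb, just within reach of the rule. The nearest gene outside that reach was MRPL17, at 12.3 kb from a reproducible summit.

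Each replicate's own peak list gave 20 of 49 MRPL genes (40.8%) with a summit at an end, against 12.2% of all protein-coding genes in replicate 1 and 11% in replicate 2, and 17 of the genes were in both lists. MRPL18, MRPL38 and MRPL43 had such a summit in replicate 1 alone, with folds of 4.24, 4.57 and 5.54. The MRPL18 summit was shared with TCP1, a chaperonin gene, and that of MRPL43 with TWNK, the gene of the mitochondrial DNA helicase. In replicate 2 alone, MRPL3 had 4.44, MRPL53 had 3.52 and MRPL40 had 7.69. The MRPL53 summit was shared with CCDC142, and that of MRPL40 with the histone chaperone gene HIRA. For MRPL23 (5.24), MRPL24 (4.86), MRPL27 (4.95) and MRPL52 (5.58), the one summit found was in 1 list alone and over 1 kb from an end, and that of MRPL24 was shared with ISG20L2 and METTL25B. The other 8 summits in a single list belonged to genes with further summits, MRPL2 (6.55), MRPL4 (6.04), MRPL15 (4.61), MRPL22 (6.99), MRPL42 (6.83), MRPL43 (5.71), MRPL47 (6.10) and MRPL48 (4.74). The 18 summits around MRPL genes that were in a single list had folds from 3.52 to 7.69, below the lowest mean fold of the 12 reproducible peaks at ends.

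No summit inside the gene or within 10 kb was in either list for 18 MRPL genes, so 31 of 49 (63.3%) had one in at least 1 list, against 42.9% of all genes. The 18 were MRPL1, MRPL9, MRPL13, MRPL16, MRPL17, MRPL19, MRPL20, MRPL32, MRPL33 and MRPL55 of the bacterial homologues, and MRPL37, MRPL39, MRPL44, MRPL45, MRPL46, MRPL50, MRPL51 and MRPL57 of the proteins added in mitochondria. Their nearest reproducible summits were 12.3 kb to 960 kb away, with a median of 178 kb and MRPL50 the farthest. Since a peak list holds no value where no peak was called, weak enrichment at these genes was not detectable here.

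The other parts of the machinery were counted in the same way. Of 28 MRPS genes, most of them for the small subunit, 6 (21.4%) had a reproducible summit at an end, beside 24.5% of MRPL genes and 4.49% of all protein-coding genes. Under every other rule counted for MRPS genes alone the MRPS share was the higher one. It was 46.4% against 30.6% for reproducible summits inside or within 10 kb (18.3% of all genes). At listed starts it was 22.2% against 14.3% (4.51%). For matched summits of any IDR it was 46.4% against 34.7% at an end (8.85% of all genes) and 71.4% against 42.9% inside or within 10 kb (30.8%). With summits of either replicate inside or within 10 kb it was 75.0% against 63.3% (42.9%). At an IDR of 0.01, MRPS genes were not counted alone. There, 10 of 49 MRPL genes had a summit at an end, against 3.63% of all genes. Of the 47 MRPS, other large subunit and assembly genes together 3 had one, so the MRPS share was not the higher one. The strongest MRPS peak was at MRPS25, with 44.2 and 39.5 (41.9 ± 3.31, SD, n = 2), followed by MRPS5 (14.7 ± 4.43), MRPS15 (10.2 ± 2.07) and MRPS30 (9.68 ± 0.0463). MRPS30 is, despite its name, a large subunit protein, and of the 3 large subunit genes with other names, GADD45GIP1, MRPS18A and MRPS30, it was the one with a summit. Of 18 genes for assembly of the large subunit and modification of its RNA, 1 had one (5.56%), namely the assembly GTPase gene MTG1 with 8.07 and 8.34 (8.21 ± 0.195, SD, n = 2). The 52 RPL genes were taken by symbol, RPL followed by a number, and most of them are for the cytosolic large subunit. Of these, 3 (5.77%) had one, namely RPL26 (34.9 ± 4.65), RPL4 (30.3 ± 3.49) and RPL21 (13.5 ± 1.95), and the first 2 shared the summit with a neighbour. Among reproducible summits at an end, the assembly and RPL shares were near the 4.49% of all genes. In the replicates' own lists, where weaker peaks count, RPL genes with a summit at an end numbered 20 and 16 of 52 (38.5% and 30.8%). RPL36A and RPL36A-HNRNPH2 were counted separately there. Assembly genes numbered 5 and 4 of 18 (27.8% and 22.2%) and MRPS genes 14 and 13 of 28 (50.0% and 46.4%). MRPL genes stood at 40.8% in both lists, and all protein-coding genes at 12.2% and 11%. The MRPL and RPL counts were therefore closer in the longer lists than among reproducible peaks, and no difference between the lists was tested.

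**Figure D4:**
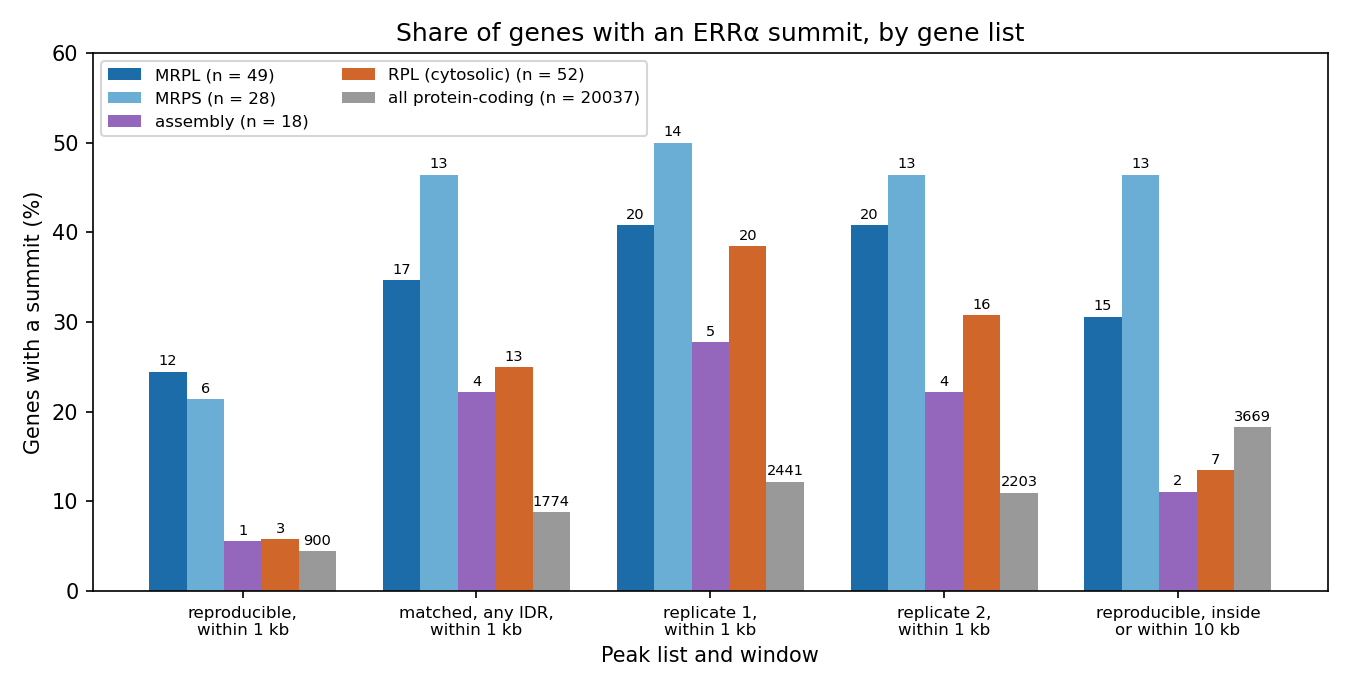
Percentage of genes with an ERRα summit (y axis) under 5 combinations of peak list and window (x axis) for MRPL, MRPS, large subunit assembly, cytosolic RPL and all protein-coding genes, with the number of genes above each bar. Among reproducible summits within 1 kb the MRPL bar stands at 24.5% and the RPL bar at 5.77%, and in the list of replicate 1 they stand at 40.8% and 38.5%.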

How the data were processed

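Binding of ERRα was measured by ChIP-seq in MDA-MB-231 cells, with 2 ERRα replicates and 2 inputs. Per the labels' protocols, 1% formaldehyde was used for fixation, each precipitation took 5 µg of antibody, and reads were paired, 81 bp each. Per the submitters' processing notes, the tools were Trim Galore (0.6.5), Bowtie2 (2.3.5), MACS2 (2.2.6), deepTools, SAMtools and Picard, and the build was hg38. No role or setting is stated. The peak lists were deposited by the authors for each replicate against both inputs, as their names state, and hold a fold enrichment (ratio of ChIP to local input background) with a −log10 p and a −log10 q per peak. The deposited matched list has the layout of IDR output, and its IDR score reaches down to 154, so it was filtered here at a score of 540 (IDR 0.05). The analysed peaks, on autosomes, X and Y, numbered 14072, 12659 and 10059, and 371, 358 and 272 on other contigs were left out. Folds are the authors' and describe peaks. Depth per peak is unknown, so no counting interval is given, and with n = 2 an SD is itself imprecise.

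Genes came from RefSeq (GRCh38.p14, the build of hg38), and gene starts, strand and promoter letters from its promoter table, in which some genes have several starts. Exons and introns were not used. The members and lists were chosen with earlier results of these data known. Genes were named if they had a matched peak inside or within 10 kb, by list where they had none, and from other lists up to 4 by fold. Distance and count steps were checked on simulated data. Python 3.11.15, pandas 2.3.3 and numpy 2.4.6 were used. Alternatives were other windows, IDR thresholds, peak lists, overlap rules, listed starts and motif lengths.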

Additional observations from a re-analysis of the deposited data

How the results depend on the processing

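Percentages in brackets are shares of all protein-coding genes under the same rule. The 12 MRPL genes with a reproducible summit at an end (4.49%) became 10 with a 500 bp window (2.82%), without MRPL2 and MRPL34, and 10 at an IDR of 0.01 (3.63%), without MRPL35 and MRPL41. The count was 14 with a 5 kb window (9.28%) and 11 with a −log10 q of at least 5 and replicate summits within 100 bp (6.11%), which kept 9 of the 12. It moved by more than 1.5 times with listed starts only, to 6 of 42 (4.51%), and in the lists without replicate 1 or without replicate 2, to 20 in both (11% and 12.2%), where all 12 were kept. Inside or within 10 kb, the lists of single replicates gave 25 to 27 genes (35.9% and 38.9%), against 15 reproducible (18.3%). Summits shared with another gene rose from 4 to 10 with the 5 kb window. The AAGGTCA count of 1 (4.26%) became 0 with TCAAGGTCA (0.335%) and 6 with AGGTCA (15.2%).

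Of the 47 other mitochondrial ribosome genes (MRPS, large subunit genes with other names and assembly), 7 had a reproducible summit at an end (4.49%). This became 12 with a 5 kb window (9.28%), 3 at an IDR of 0.01 (3.63%), 17 with all matched peaks (8.85%), 11 with the −log10 q rule (6.11%), 17 with overlap of 50% of both peaks (8.12%) and 17 to 19 in single lists (11% and 12.2%). All 51 recomputed mean folds stayed within 1 SD, which with n = 2 any single replicate must. No paired analysis was possible because inputs enter only through the deposited fold.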
